A study of Homo sapiens with 2 samples.

Results

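The mitochondrial respiratory chain was examined through the transcripts of its subunits, which are encoded partly in the nucleus and partly in mitochondrial DNA. Members were taken by symbol: the mitochondrial MT-ND, MT-CO, MT-CYB and MT-ATP genes, and the nuclear NDUF subunits of complex I, SDHA to SDHD of complex II, UQCR genes of complex III, COX4 to COX8 genes of complex IV and ATP5F, ATP5M and ATP5P genes of complex V. Of 61487 genes in the table, 101 were members once 104 matching pseudogene symbols had been left out. These were 85 nuclear genes, 13 mitochondrial mRNA genes and 3 antisense, divergent or readthrough symbols (UQCRB-AS1, UQCRFS1-DT and ATP5MF-PTCD1) that held between 9 and 47 UMIs in the cells used and are not described further. The nuclear genes comprised 37 of complex I, 4 of complex II, 9 of complex III, 17 of complex IV and 18 of complex V, and the mitochondrial genes 7 of complex I, 1 of complex III, 3 of complex IV and 2 of complex V.

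The study differentiated H9 (WA09) cells, an established human embryonic stem cell line, toward serotonin neurons (SNs) to ask what the transcription factor FOXA2 contributes. Both groups carried EGFP knocked in at TPH2, the gene of the neuronal enzyme that starts serotonin synthesis, and sorting at day 42 took the cells positive for EGFP. The WT group had no other edit, and the FKO group had in addition a knockout of FOXA2, made by a small frameshifting indel in a single line (FKO2), so that line and genotype cannot be told apart. Each group gave 1 library of the 10x Genomics 3' kit, in which every captured mRNA molecule is counted once by a unique molecular identifier (UMI). Since a molecule counts once whatever its length, levels are given as CPM (UMIs scaled to the same total in each library) and are not divided by length.

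The deposited table of the library labelled WT held 11052 barcodes, 123064653 UMIs and a median of 10959.5 UMIs per barcode, and that of the library labelled FKO 8806 barcodes, 70588747 UMIs and a median of 6669.5. The libraries shared 21 barcode sequences. Barcodes with under 1000 UMIs or under 500 genes and likely doublets were dropped. The rest were placed in bands by the share of UMIs from the 37 MT- genes, namely up to 5%, 5 to 10% and 10 to 20%. The library labelled WT had 336, 5385 and 2522 cells in these bands, and the library labelled FKO 2913, 4067 and 726. Median UMIs per cell were 9179, 12581 and 10331 in the library labelled WT and 6919, 6930 and 3062 in the library labelled FKO. The bands were thus filled very differently, and the 10 to 20% band of the library labelled FKO was the shallowest. Unless a band is named, values come from the cells up to 10%, of which there were 5721 and 6980. With 1 library per condition there were no replicates and no test, cells do not replace replicates, and all intervals are 95% intervals that cover counting error only.

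FOXA2 (ENSG00000125798), the targeted gene, stood at 4.45 CPM of non-mitochondrial UMIs (312 UMIs) in the library labelled WT against 23.6 (1295 UMIs) in the library labelled FKO, which gave a log2 ratio (FKO over WT) of 2.40 (2.22 to 2.59). The mRNA of the targeted gene was thus not lower in the library labelled FKO, which by itself does not decide whether the labels hold. Every direction below rests on the labels as deposited. By band, FOXA2 was at 13.9, 3.97 and 4.28 CPM in the library labelled WT, from up to 5% to 10 to 20%, and at 17.1, 29.03 and 15.4 in the library labelled FKO. Up to 5%, where the library labelled WT had 47 UMIs of it, the log2 ratio was 0.31 with an interval that includes 0 (-0.13 to 0.77). Because 3' tags leave a small indel unseen, this checks the level of the mRNA and not the edit.

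The sorted cell type was checked against markers. All 9 serotonergic markers were detected, with a summed level of 3166 CPM of non-mitochondrial UMIs in the library labelled WT against 2607 in the library labelled FKO, and FEV the most abundant at 1714 and 959.6. Without FEV the sum was 1452 and 1647, and gene by gene the median log2 ratio (FKO over WT) was 0.42 with 5 of the 9 above 0, from FEV (-0.84) to SLC18A2 (1.36). All 8 neuronal markers were detected too, with sums of 11295 and 15539 and STMN2 the most abundant. Their median log2 ratio was 0.41. Over all nuclear genes at 10 CPM or more in either library the median was 0.44. Relative to it the serotonergic and neuronal medians were -0.02 and -0.03. Marker sums of other cells also differed. The 6 mesenchymal markers summed to 41.1 and 243, led by LUM in the library labelled WT and COL1A2 in the library labelled FKO, and the 5 astroglial markers to 10.0 and 45.1, led by SLC1A3 and S100B. The 6 cycling markers summed to 56.9 and 74.1 (CENPF the most abundant) and the 7 floor plate markers to 59.3 and 82.9 (SPON1 the most abundant). FOXA2 is itself among the floor plate markers, which without it summed to 54.9 and 59.3. The 6 progenitor markers summed to 983 and 1143 with VIM, the most abundant, and to 204 and 156 without it, and 3 of the 4 that were compared were below 0 in log2 ratio. The 9 stress genes summed to 269 and 296, led by ATF4. In the band up to 5% the order of several of these sums was the reverse, with 150.4 in the library labelled WT against 65.7 in the library labelled FKO for floor plate markers, 185 against 70.0 for cycling, 1836 against 1054 for progenitor and 434 against 304 for stress genes. The serotonergic sum was also reversed there, at 2545 against 2734. Pooled over the cells up to 10%, none of these markers was at 0, whereas in the band up to 5% ALDH1L1 was at 0 in the library labelled WT and GFAP in the library labelled FKO.

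The respiratory chain passes electrons from NADH through complex I, and from succinate through complex II, to complexes III and IV, and complex V uses the resulting proton gradient to make ATP. Complex II is built from nuclear genes only, whereas the other complexes join nuclear subunits to a few made from mitochondrial DNA, so that their assembly draws on both genomes. Neurons depend heavily on this pathway for their ATP, and transcription factors such as NRF1, GABP and YY1 are known to act at promoters of many of its nuclear genes.

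Promoter letters were therefore counted in RefSeq promoters (GRCh38.p14, 250 bases before to 50 after the start), which were found for 68 of the 85 nuclear members and for 27305 genes in all. The NRF1 letters GCGCANGCG, on either strand, were in 22 of the 68 member promoters (32.4%) and in 8.05% of all promoters. The ETS letters CCGGAAGT, which GABP reads, were in 10 (14.7%) against 4.44%, and the YY1 letters AANATGGCG in 16 (23.5%) against 3.37%. The letters TCAAGGTCA of oestrogen-related receptors were in 1 member promoter (1.47%) and in 0.359% of all. The letters can overlap one another, and a match is a description of the window and not a binding site. Stretches before the start are shown for members at either end of the ratios given below, with the motif letters in capitals.
ATP5ME (NRF1 letters, chr4:674326-674374, minus strand): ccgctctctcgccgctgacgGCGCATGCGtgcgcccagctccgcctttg
COX5B (ETS letters, chr2:97646005-97646052, plus strand): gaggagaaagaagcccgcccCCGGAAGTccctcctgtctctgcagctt
UQCRQ (ETS letters, chr5:132866568-132866615, plus strand): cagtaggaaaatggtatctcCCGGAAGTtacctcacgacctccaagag
NDUFS1 (ETS letters, reverse, chr2:206159575-206159622, minus strand): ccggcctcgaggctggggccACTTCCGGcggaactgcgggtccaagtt
SDHA (NRF1 letters, chr5:218183-218231, plus strand): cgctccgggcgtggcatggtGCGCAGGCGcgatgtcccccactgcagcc
ATP5ME, COX5B (level with COX7C) and UQCRQ had the lowest log2 ratio of their complex and NDUFS1 and SDHA the highest, so some members at both ends carried the same letters. UQCRC1, the highest of complex III, had NRF1 letters too. For NDUFA7, SDHB, COX7A2L and ATP5F1A, also at an end of their complex, no stretch with NRF1 or ETS letters was found. That can also mean that no promoter was matched. Letters that reach into the 50 bases after the start were counted above but would not be shown as a stretch. Over the members compared that had such a promoter, the median ratio (log2, FKO over WT) was -0.84 for the 21 with NRF1 letters and -0.89 for the 43 without. It was -1.001 for the 10 with ETS letters and -0.86 for the 54 without, and -0.79 for the 16 with YY1 letters and -0.90 for the 48 without.

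Summed over all 85 nuclear members, the chain took 3.89% of non-mitochondrial UMIs in the library labelled WT (3.88 to 3.89) against 2.14% in the library labelled FKO (2.13 to 2.14). By band, from up to 5% to 10 to 20%, the library labelled WT had 3.66%, 3.90% and 3.77%, and the library labelled FKO 2.03%, 2.22% and 1.63%. The share was lower in the library labelled FKO in each band, and the values of the libraries did not overlap. The same order held for each complex, as the plot of summed levels shows. Complex I members summed to 13519 and 7418 CPM of non-mitochondrial UMIs, complex V to 11762 and 6419, complex IV to 9527 and 5165, complex III to 3905 and 2239.7 and complex II to 167 and 116 in the libraries labelled WT and FKO. Complex II, the only complex without a mitochondrial gene, was the least abundant in both.

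**Figure D1:**
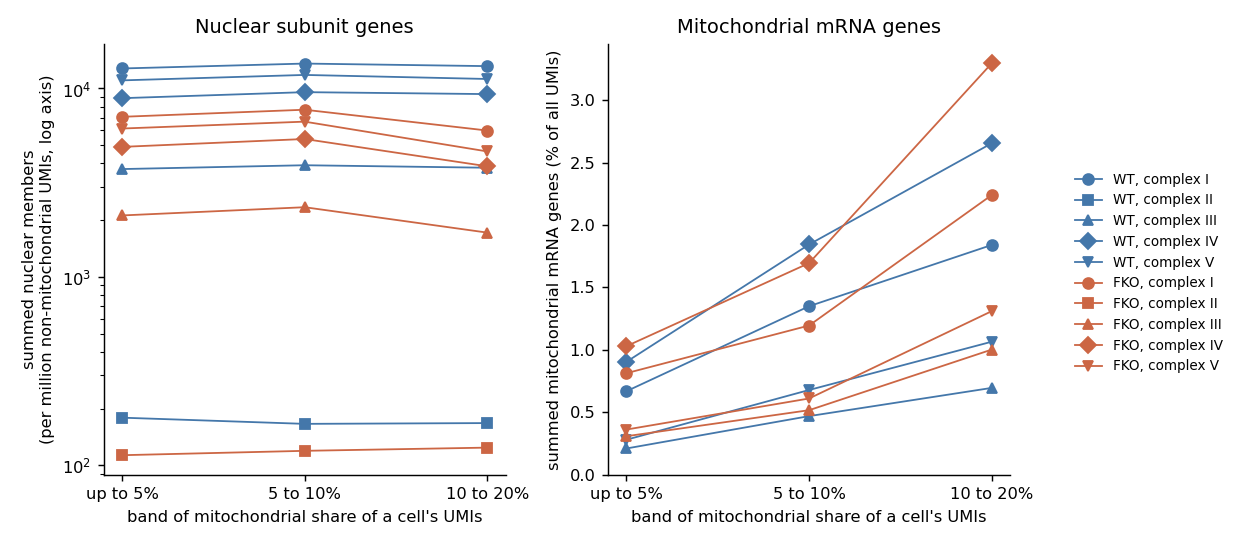
Summed levels by complex (symbols), library (colours) and band of mitochondrial share (x axis); left, nuclear members in CPM of non-mitochondrial UMIs on a log axis, and right, mitochondrial mRNA genes in percent of all UMIs. On the left each FKO line lies under the WT line of its complex; on the right all lines rise from left to right, which the choice of bands itself brings about.

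Gene by gene, 77 of the 85 nuclear members reached 10 CPM in either library and were compared, 76 of them reaching it in both; NDUFA7 reached it only in the library labelled WT. The median ratio of these genes (log2, FKO over WT) was -0.86 (-0.88 to -0.84), with 73 of 77 below 0. Over all 9850 nuclear genes compared the median was 0.44, so ratios are also given relative to it, and on that scale the members' median was -1.30. Relative to all genes, 73 of 77 members were at least 1.5-fold lower, against 23.1% of all genes, and 0 were at least 1.5-fold higher, against 18% of all genes. The same call took in 50.5% of the genes in the shortest of 5 equal groups by gene length and 73.4% of the genes under 20 kb at 100 CPM or more in either library. Without that adjustment 59 were lower and 1 higher, against 8.98% and 41.8% of all genes. The 73 members below 0 all lay under the interquartile range of all genes in the plot of member ratios.

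**Figure D2:**
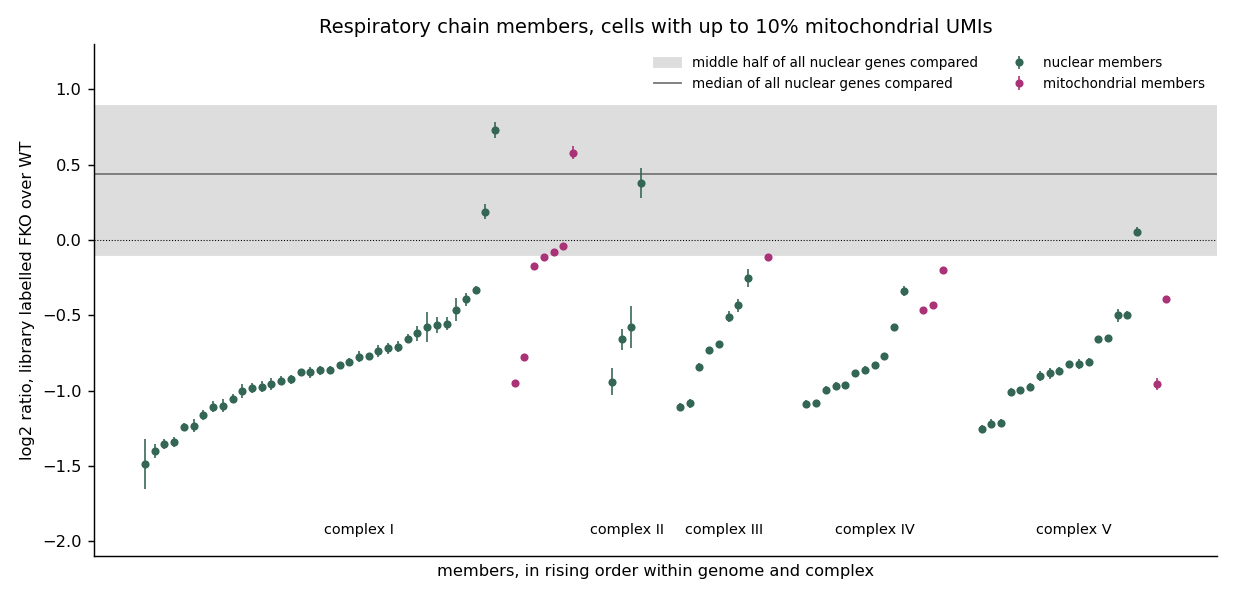
Log2 ratio of FKO over WT for each nuclear member compared (green) and each mitochondrial mRNA gene (purple) by complex, with 95% counting intervals; the grey line is the median of all nuclear genes compared (0.44) and the grey band their interquartile range. Nuclear genes are scaled to non-mitochondrial UMIs and mitochondrial genes to all UMIs; 73 green points lie between -1.49 and -0.25, and 4 lie above 0.

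The ratio moved with gene length and abundance, also among other genes. Members are short genes, with a median length of 12.6 kb against 36.3 kb for all genes compared (GENCODE release 29, GRCh38, with a length for 99.5% of genes compared). The median log2 ratio of all genes went from -0.15 in the shortest of 5 equal groups by length to 0.84 in the longest. Members went from -0.92 (34 genes) to -0.82 (25 genes) and -0.71 (13 genes) in the 3 shortest groups, with only 3 and 2 members in the longer groups, which are too few to read. Across genes, which are not independent replicates, Spearman's rho of length and log2 ratio was 0.44 over all genes and 0.42 over the 77 members. Members are also abundant. Genes at 100 CPM or more in either library had a median of 0.10, and those of them under 20 kb a median of -0.51 over 839 genes. Against the former, a reference chosen after the data were seen, 67 of 77 members were at least 1.5-fold lower, against 11.5% of all genes, and 1 higher, against 36.6%. Against the latter, chosen likewise, the members' median was -0.35, with 13 of 77 members at least 1.5-fold lower, against 1.38% of all genes and 6.32% of the 839, and 3 higher, against 67.7% and 19.1%. The 839 genes include 52 members. The size of the difference relative to other genes, and most of its calls, thus depended on which genes it was set against. The part of length and abundance in the result was not tested further.

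**Figure D3:**
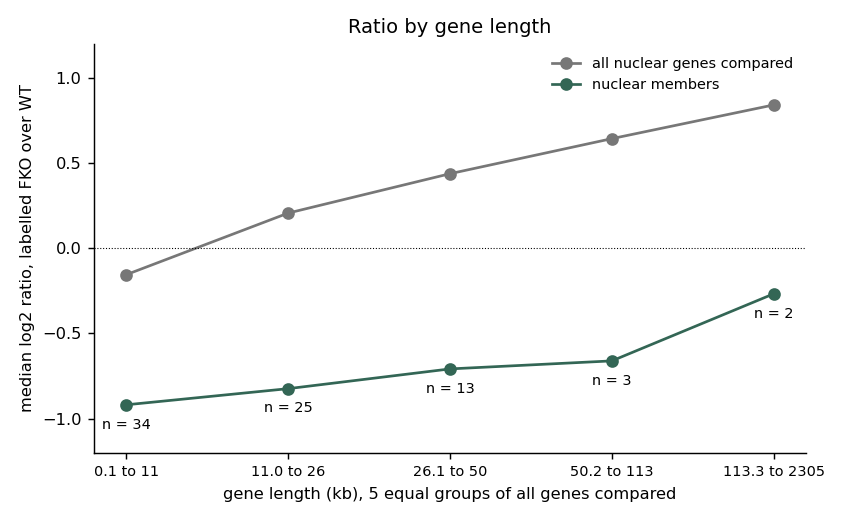
Median log2 ratio of FKO over WT in 5 equal groups of genes by gene length (x axis, kb), for all nuclear genes compared (grey) and for the nuclear members in each group (green, number of members given). Both lines rise with length, and the members lie below all genes of the same length group, by the least margin in the shortest group; the groups of 3 and 2 members are too small to read.

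Among the nuclear members of complex I, which takes electrons from NADH, all 37 were compared and the median log2 ratio was -0.87 (-0.90 to -0.84). NDUFA4, the most abundant, which is now counted with complex IV by many authors, had 1613 CPM of non-mitochondrial UMIs in the library labelled WT against 908 in the library labelled FKO, or a log2 ratio of -0.83 (-0.84 to -0.81). NDUFA7, an accessory subunit, had the lowest ratio, with 19.9 and 7.09 CPM and a log2 ratio of -1.49 (-1.65 to -1.32). NDUFS1, the large iron-sulfur subunit of the electron-carrying arm, had the highest, with 69.2 and 115 CPM and a log2 ratio of 0.73 (0.67 to 0.78); set against all genes it was 0.29. It was the only nuclear member compared that was at least 1.5-fold higher before that adjustment. NDUFA10 was the other complex I member above 0 (0.19) and was picked out after its value was seen. NDUFS1 and NDUFA10 span 44.8 and 133 kb, and are thus long for members.

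Complex II oxidises succinate and is also an enzyme of the citric acid cycle. Its 4 genes had a median log2 ratio of -0.62 (-0.72 to -0.52), but they differed in direction. SDHB, the iron-sulfur subunit, had 50.9 CPM in the library labelled WT against 26.5 in the library labelled FKO (log2 ratio -0.94). SDHC and SDHD, the membrane anchors, had 74.0 and 46.8 and 17.5 and 11.7 CPM (log2 ratios -0.66 and -0.58). SDHA, the flavoprotein that binds succinate, was at 24.2 and 31.5 CPM, with a log2 ratio of 0.38 (0.28 to 0.48), which is -0.06 relative to all genes. SDHA and SDHD have near-identical copies elsewhere in the genome, between which the counting could split molecules, so their levels are uncertain.

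In complex III, which passes electrons to cytochrome c, 8 of 9 genes were compared, with a median log2 ratio of -0.71 (-0.73 to -0.69). UQCR10 was the most abundant (849 and 474 CPM, log2 ratio -0.84). UQCRQ, a small subunit, had the lowest ratio (622 and 288 CPM, -1.11) and UQCRC1, a large core subunit, the highest (88.4 and 74.2 CPM, -0.25). All 8 were lower in the library labelled FKO. The retrocopy UQCRHL, at 6.32 and 5.29 CPM, was under the limit, and it shares sequence with UQCRH.

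In complex IV, which hands electrons to oxygen, 11 of 17 genes were compared, all of them lower in the library labelled FKO, with a median log2 ratio of -0.89 (-0.91 to -0.86). COX7C was the most abundant (1701 and 801 CPM, -1.09) and COX5B the lowest in ratio (699 and 329 CPM, -1.09). These ratios were level within counting error, and COX7C was the lowest at 5 to 10% and at 10 to 20%. COX7A2L, which acts in joining complexes into larger assemblies, was the highest (301 and 238 CPM, -0.34). None of the 8 tissue and condition isoforms listed reached the 10 CPM needed for comparison. COX4I2 and COX7A1 had 0 UMIs in both libraries, for which the exact 95% interval reaches up to 0.0526 CPM (library labelled WT) and 0.0671 CPM (library labelled FKO). COX7B2 had 0 UMIs in the library labelled FKO and 1 in the library labelled WT, and COX6A2 4 and 0. COX6B2 and COX8C had under 2 CPM in each, and NDUFA4L2, a paralogue of NDUFA4, had 5.45 and 7.59 in the libraries labelled WT and FKO.

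In complex V, the ATP synthase, 17 of 18 genes were compared, with a median log2 ratio of -0.87 (-0.89 to -0.84). ATP5F1E, the epsilon subunit of the catalytic head, was the most abundant nuclear member of all (2852 and 1429 CPM, log2 ratio -0.998). ATP5ME, a membrane subunit, was the lowest in ratio (670.2 and 281 CPM, -1.26). ATP5F1A, the alpha subunit of the head, was nearly level (330.4 and 343 CPM, 0.06), or -0.38 relative to all genes. Over all complexes, the 4 members above 0 in log2 ratio were thus NDUFS1, SDHA, NDUFA10 and ATP5F1A, and none of them was at least 1.5-fold higher relative to all genes.

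The difference between the libraries was present in each band. The median log2 ratio of the nuclear members was -0.86 (-0.93 to -0.75) up to 5%, -0.79 (-0.83 to -0.75) at 5 to 10% and -1.15 (-1.28 to -1.03) at 10 to 20%. The medians of all genes in these bands were 0.47, 0.42 and 0.55, so the members stood at -1.32, -1.22 and -1.70 relative to them. Of 77 members compared, 73, 73 and 74 were at least 1.5-fold lower relative to all genes, against 26.9%, 22.2% and 28% of all genes, and 0 were higher, against 23.7%, 17.4% and 23.7%. Of the genes under 20 kb at 100 CPM or more, 72.8%, 72.6% and 81.2% were lower by the same call. ATP5F1E, for example, had 2564, 2867 and 2695 CPM in the bands of the library labelled WT, from the lowest to the highest, and 1362, 1485 and 844 in the library labelled FKO. NDUFS1 was at 64.0, 69.5 and 73.6 CPM and at 117, 112 and 111, higher in the library labelled FKO in every band.

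Within a library the bands differed much less, except at 10 to 20% over 5 to 10% in the library labelled FKO. In the library labelled WT, the median log2 ratio of the nuclear members at 10 to 20% over 5 to 10% was -0.05 (-0.09 to -0.01), and 0 of 77 were at least 1.5-fold lower or higher relative to all genes, against 0.29% and 0.544% of all genes. At 5 to 10% over up to 5% it was 0.09, again with 0 of 77 in either direction, against 4.01% lower and 1.18% higher. In the library labelled FKO, the same contrast at 5 to 10% over up to 5% was 0.13, with 0 of 76, against 0.112% and 1.23%. At 10 to 20% over 5 to 10%, however, the library labelled FKO had a median of -0.41 (-0.53 to -0.28), and 23 of 76 members were at least 1.5-fold lower relative to all genes, against 7.82% of all genes, with 0 higher, against 9.9%. The genes under 20 kb at 100 CPM or more also had a lower median in this contrast, at -0.31 over 741 genes, and 25.2% of them were lower by the same call, against 30.3% of the members. The cytosolic ribosomal proteins had a median of -0.014 (-0.08 to 0.05) in this contrast, with 0 of 82 lower. Complex II had a median of 0.08 with a wide interval (-0.31 to 0.42), whereas complexes I, III, IV and V had -0.35, -0.46, -0.50 and -0.45. The size of this contrast changed with the cells and the weighting used. In the library labelled FKO it was -0.32 with at least 2000 UMIs and 1000 genes per cell (553 cells in the band), -0.55 with each cell thinned to 2000 UMIs (554 cells), -0.73 with cells weighted equally and -0.05 in cells with 5000 to 15000 UMIs (187 cells). The library labelled WT gave -0.11 when thinned, -0.11 with equal weights and -0.05 at 5000 to 15000 UMIs. The ratio between the libraries at 10 to 20% was -1.08, -1.22, -1.42 and -0.80 under these choices, in the same order. The contrast of the library labelled FKO moved little with doublets kept (-0.38) and in cells with a TPH2 UMI (-0.42). Depth and the kind of cell cannot be told apart in a choice of cells by their UMIs.

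**Figure D4:**
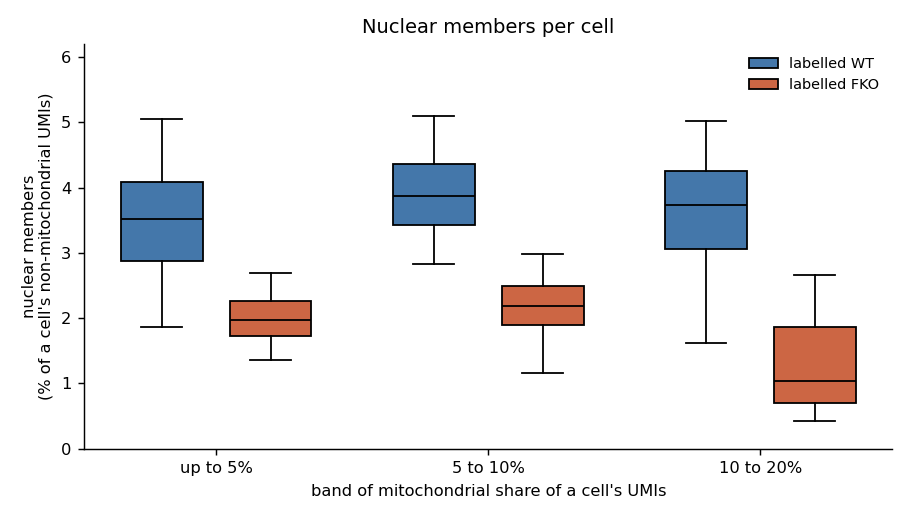
Nuclear members in percent of each cell's non-mitochondrial UMIs, by band of mitochondrial share and library; the line is the median cell, the box the quartiles and the whiskers the 5th and 95th percentiles of cells. Cells of the library labelled FKO lie lower in every band, with the widest relative spread at 10 to 20%, where the median cell had 1.04% and the box runs from 0.703% to 1.87%.

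Per cell, the nuclear share had a median of 3.86% in the library labelled WT (quartiles 3.40 and 4.35) against 2.10% in the library labelled FKO (quartiles 1.80 and 2.40). The lower quartile of the library labelled WT thus lay above the upper quartile of the library labelled FKO. In the 10 to 20% band of the library labelled FKO, Spearman's rho of a cell's nuclear share and its total UMIs was 0.69 over 726 cells, against 0.31 over 2522 cells in the library labelled WT. Cells share a library, so these values describe the libraries. Marker sums moved with the bands as well. The astroglial markers of the library labelled FKO summed to 17.4, 68.6 and 250.2 CPM from the lowest to the highest band, with S100B at 240.3 in the highest and GFAP and ALDH1L1 at 0 there. The serotonergic markers summed to 2734, 2498 and 1720.1. In the library labelled WT the cycling markers summed to 185, 50.4 and 15.6 and the serotonergic markers to 2545, 3198 and 3479.8. MALAT1, a nuclear non-coding RNA, took 10.1% of non-mitochondrial UMIs at 10 to 20% in the library labelled FKO, against 6.0% at 5 to 10%. It took 7.53% and 6.09% in the library labelled WT. In cells with a TPH2 UMI (201 at 10 to 20%), the 10 to 20% over 5 to 10% contrast of the library labelled FKO was -0.42, against -0.41 in all cells. The part of the other markers in this contrast was not tested.

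The nuclear share was lower in the library labelled FKO also in cells chosen by a marker. Cells with a TPH2 UMI gave a nuclear share of 3.90% in the library labelled WT (4088 cells) against 2.12% in the library labelled FKO (3680 cells), and cells without one 3.84% and 2.15%. Cells with 3 or more UMIs of cycling markers, a choice made after the data were seen, gave 3.32% (60 cells) and 2.24% (109 cells). Cells chosen in the same way by floor plate markers gave 3.46% (133 cells) and 2.24% (279 cells), and by mesenchymal markers 3.41% (143 cells) and 2.17% (234 cells). These 3 choices took deeper cells. Median UMIs were 21720.5, 16259 and 18431 in the library labelled WT, against 12883 in cells with a TPH2 UMI. In the library labelled FKO they were 12600, 9770 and 10136, against 7489. Cytosolic ribosomal proteins also took a higher share, at 20.6%, 20.4% and 21.5% against 12.3% in the library labelled WT. In the library labelled FKO it was 12.6%, 10.85% and 15.2% against 7.01%. Cells with 3 or more UMIs of cycling, floor plate, mesenchymal or astroglial markers were also left out. The members' median log2 ratio was then -0.87, or -1.30 relative to all genes.

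The 13 mitochondrial mRNA genes took 4.24% of all UMIs in the library labelled WT against 3.34% in the library labelled FKO, or a log2 ratio of -0.34. The 2 mitochondrial rRNA genes took 3.39% and 1.97% (-0.78). Pooled over the cells up to 10%, 12 of the 13 genes were lower in the library labelled FKO and 1 higher, but within the bands 3, 7 and 3 were lower and 10, 6 and 10 higher. The direction of the mRNA sum was not stable either, since it was 0.28 up to 5%, -0.11 at 5 to 10% and 0.33 at 10 to 20%; the bands themselves fix the total mitochondrial share, so levels within a band follow partly from that choice and are given as a description. For each UMI of the nuclear members there were 1.18 mitochondrial mRNA UMIs in the library labelled WT against 1.65 in the library labelled FKO. By band the figures were 0.586, 1.21 and 1.89 in the library labelled WT and 1.29, 1.93 and 5.54 in the library labelled FKO. This ratio was thus higher in the library labelled FKO in each band. Its denominator, the nuclear members, was lower there, as were the cytosolic ribosomal proteins, which have no part in the chain (median log2 ratio -0.73).

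The make-up of the mitochondrial mRNA, a share within the 13 genes, is not fixed by the total that sets the bands. MT-CO2, a core subunit of complex IV, was the most abundant, with 17.6% of the UMIs of the 13 genes in the library labelled WT against 16.2% in the library labelled FKO, and the complex V gene MT-ATP6 followed with 15.0% and 14.6%. MT-CO3 had 12.9% and 14.2%, MT-CO1 12.0% and 11.3% and MT-CYB, the mitochondrial subunit of complex III, 10.8% and 12.7%. MT-ND3, a subunit of complex I, had the widest gap in share of the 13 genes, with 10.8% and 7.11%. By band it held 10.6%, 10.8% and 11.1% in the library labelled WT and 7.12%, 7.103% and 7.34% in the library labelled FKO, so the bands of the libraries did not overlap. Of the other complex I genes, MT-ND4 (7.40% and 8.67%), MT-ND1 (3.88% and 4.80%), MT-ND5 (3.68% and 4.44%) and MT-ND2 (3.62% and 4.07%) were each higher as a share in the library labelled FKO.

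**Figure D5:**
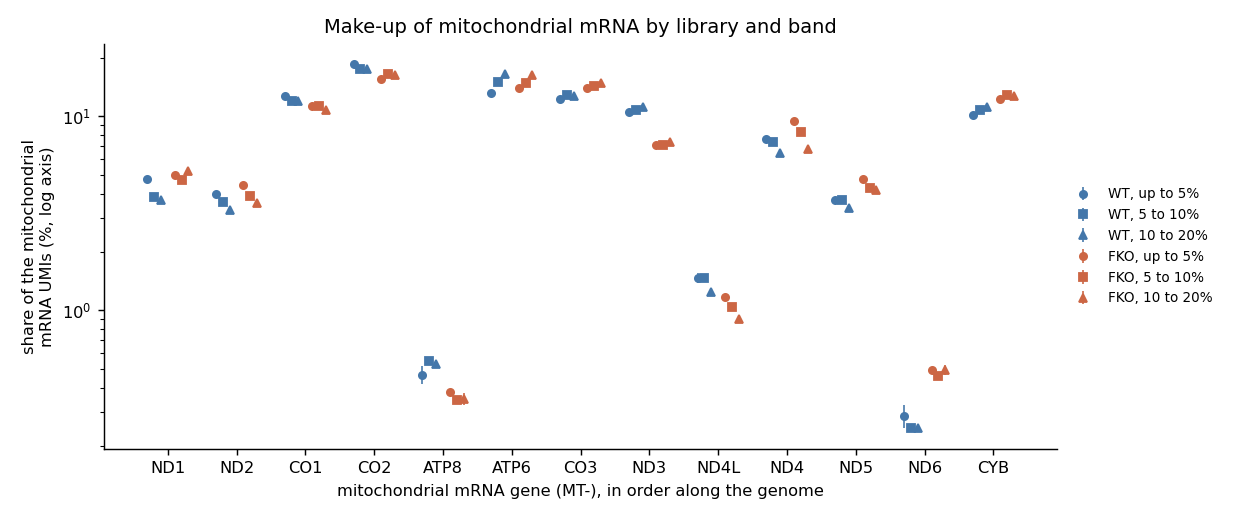
Share of each of the 13 mitochondrial mRNA genes among their summed UMIs (log axis), in order along the mitochondrial genome, by library (colours) and band (symbols), with exact binomial 95% intervals. ND3, ND4L, ATP8, CO1 and CO2 lie lower, and ND6, ND1, ND2, ND4, ND5, CO3 and CYB higher, in the library labelled FKO in every band. The order of the libraries for ATP6 changes between bands.

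MT-ND6, the only mRNA gene of the 13 on the minus strand, was the scarcest in the library labelled WT, at 0.248% (7985 UMIs) against 0.471% (9114 UMIs) in the library labelled FKO. By band it held 0.284%, 0.248% and 0.248%, and 0.490%, 0.460% and 0.493%. As a level pooled over the cells up to 10% it was at 105 and 157 CPM of all UMIs, a log2 ratio of 0.58 (0.53 to 0.62), and the 1 gene of the 13 above 0. Within the bands it was one of 10, 6 and 10 such genes. MT-ATP8 held 0.545% and 0.358% and MT-ND4L 1.46% and 1.08%. Both overlap the next gene, so molecules of a pair cannot be told apart with certainty. MT-ATP8 (chrM:8366-8572) and MT-ATP6 (chrM:8527-9207) share 46 bases on the plus strand of GRCh38, shown here because they limit these counts, with the start codon of MT-ATP6 and the stop codon of MT-ATP8 in capitals.
Shared by MT-ATP8 and MT-ATP6 (chrM:8527-8572, plus strand): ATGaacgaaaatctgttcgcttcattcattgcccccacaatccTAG
MT-ND4L and MT-ND4 share 7 bases in the same way. Summed over the 13 genes, 6.83% of the mRNA UMIs would have to be assigned to another gene to turn the make-up of one library into that of the other, against 2.08% between the 5 to 10% and 10 to 20% bands of the library labelled WT and 2.88% between those of the library labelled FKO. Between the bands up to 5% and 5 to 10% it was 3.45% in the library labelled WT against 2.64% in the library labelled FKO.

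The mitochondrial rRNA genes, which are not members, are given for comparison. MT-RNR1 stood at 9607 CPM of all UMIs in the library labelled WT against 3813 in the library labelled FKO (log2 ratio -1.33), and MT-RNR2 at 24332 and 15901 (-0.61). Relative to the 13 mRNA genes, MT-RNR1 had 22.7 UMIs per 100 in the library labelled WT against 11.4 in the library labelled FKO, and the bands gave 24.7, 22.6 and 27.8 against 11.2, 11.5 and 12.4. MT-RNR2 had 57.4 UMIs per 100 against 47.7, and by band 58.1, 57.4 and 67.5 against 46.5, 48.3 and 54.2. Set against the mRNA, both rRNA genes were thus lower in each band of the library labelled FKO.

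Other genes that serve the chain were compared in lists, with calls relative to all genes, of which 23.1% were lower and 18% higher. Of 7 other chain proteins compared, 6 were at least 1.5-fold lower, with a median log2 ratio of -0.81, from CYC1, the cytochrome c1 of complex III (-0.995), to DMAC2L (-0.12). Of 45 assembly factors, 27 were lower and 0 higher, with a median of -0.23, from UQCC2 (-1.11) to COX18 (0.84). Mitochondrial ribosomal proteins, which translate the 13 mRNAs, had a median of -0.56 with 66 of 74 lower and 0 higher, from MRPL52 (-1.14) to MRPS5 (0.41). Protein import genes had -0.40 with 14 of 20 lower and 0 higher, from HSPE1 (-1.22) to TOMM20 (0.45). The cytosolic ribosomal proteins, which have no part in the chain and took 12.7% (library labelled WT) and 7.76% (library labelled FKO) of non-mitochondrial UMIs, had a median of -0.73 with 77 of 82 lower and 0 higher, from RPS29 (-1.47) to RPS20 (0.36). At least 1.5-fold lower were thus 93.9% of the cytosolic ribosomal proteins compared and 94.8% of the nuclear respiratory chain members compared. Without setting ratios against all genes, 8.98% of all genes were lower and 41.8% higher. On that scale 5 of the 7 other chain proteins were lower, as were 12 of the 45 assembly factors and 36 of the 74 mitochondrial ribosomal proteins. So were 6 of the 20 protein import genes and 59 of the 82 cytosolic ribosomal proteins. Higher were 2 of the assembly factors and 0 in the others of these lists.

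Genes that maintain or express mitochondrial DNA had a median log2 ratio of 0.10, or -0.34 relative to all genes, with 7 of 17 (41.2%) lower and 1 higher on that scale, against the same 23.1% and 18%, from SLIRP, which stabilises mitochondrial mRNA with LRPPRC (-1.32), to POLG, the mitochondrial DNA polymerase (1.17). The median of the nuclear regulators was 0.62, which is 0.18 when set against all genes, with 0 of 6 lower and 1 higher, the latter about the share of all genes (5 of the 6 reached the limit in both libraries), from GABPB1 (0.22) to PPARGC1A, a coactivator of mitochondrial gene programmes. PPARGC1A was at 2.68 CPM (188 UMIs) in the library labelled WT against 11.5 (631 UMIs) in the library labelled FKO, or a log2 ratio of 2.10 (1.86 to 2.34), and reached the limit for comparison only in the library labelled FKO. By band the ratio was 3.69 (2.13 to 5.97) up to 5%, which rests on 3 UMIs in the library labelled WT, 2.06 at 5 to 10% and 1.68 at 10 to 20%. Without setting ratios against all genes, 2 of the 17 genes of mitochondrial DNA were lower and 2 higher. Of the 6 nuclear regulators, 0 were lower and 3 higher on that scale, against 8.98% and 41.8% of all genes.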

How the data were processed

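The deposited tables hold UMI counts that the authors left unnormalized, by gene and barcode, for 1 WT and 1 FKO library, made with Cell Ranger (7.0 per the submitters' processing notes, 7.1.0 per the file headers) on GRCh38; the gene annotation release is not given in the sources used here. From these counts, doublets were ranked with Scrublet in scanpy 1.11.5, and the highest scores were removed at a rate of 0.8% per 1000 barcodes (977 and 620), set from the number of barcodes rather than by the caller's own threshold. Within each library and band, UMIs were added over the cells that passed. Nuclear genes were scaled to non-mitochondrial UMIs and mitochondrial genes to all UMIs. Genes at a CPM of 10 in either group were compared; a count of 0 stood at 3 counts, and a call meant 1.5-fold relative to the median of all nuclear genes compared. Exact intervals were used (conditional on the sum for ratios, Clopper-Pearson for shares, Poisson for counts); the interval of a median is the median of its genes' bounds. Named were the 13 mitochondrial genes, the most abundant gene and the highest and lowest ratio per complex, the SDH genes, NDUFA4, the isoforms, and the highest and lowest ratio of each list. The members and lists were chosen with earlier results of these data known. The comparison was also run on simulated data, from which no value is given here. Alternatives changed the denominator, doublets, cell limits, depth, pooling, gene floor, fold, scaling and mitochondrial limit. The gene length groups, the reference sets of abundant and short genes, and the marker-defined cells were chosen with the data in view.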

Additional observations from a re-analysis of the deposited data

Results flagged for a closer look

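A signal was present in genes that are not members. Symbols of nuclear copies of mitochondrial genes summed to 712 CPM of non-mitochondrial UMIs (706 to 719) in the library labelled WT and 449 (444 to 455) in the library labelled FKO, above the limit that a count of 0 allows. MTATP6P1 held 46107 of 49941 and 21940 of 24700 of these UMIs. Copies at 10 CPM or more, MTATP6P1 among them, were counted with all nuclear genes compared. Per 1000 mitochondrial mRNA UMIs the copies had 14.5, 15.6 and 16.2 UMIs from the lowest to the highest band of the library labelled WT and 12.8, 12.7 and 13.8 in the library labelled FKO. Their level thus followed that of the mitochondrial mRNA across bands, and whether these molecules came from the mitochondrial genome was not tested. MTATP6P1 is a near-identical copy of MT-ATP6, so the levels of both are uncertain.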

How the results depend on the processing

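Among the values of the main comparisons under the alternatives, 136 moved by less than their counting interval, or by less than 1.5 times for a count, 41 moved by more and 1 reversed. The values that moved or reversed follow as log2 ratios of FKO over WT unless said otherwise; where no cause is named, it was not tested. Scaled to all UMIs, the nuclear members stood at -0.82, complexes I, III, IV and V at -0.83, -0.67, -0.85 and -0.83, and the 10 to 20% over 5 to 10% contrast of the library labelled WT at -0.12. With no floor beyond 3 counts, which adds low genes, the members stood at -0.83, complex IV at -0.85 and the members relative to all genes at -1.59; with a floor of 50 CPM the last was -1.15 and complex II -0.80. Relative to genes at 100 CPM or more, the members stood at -0.96 with 1 higher, and relative to those of them under 20 kb at -0.35 with 13 lower and 3 higher. Without setting ratios against all genes 1 member was higher. At most 5% mitochondrial UMIs left 336 cells of the library labelled WT and gave -0.83, -0.93 and -0.74 for complexes I, II and III, a difference in mitochondrial make-up of 8.37 points, and the reversed mitochondrial mRNA sum of 0.28. Also reversed there were MT-ND1 (0.36), MT-ND2 (0.44), MT-CO1 (0.10), MT-CO2 (0.029), MT-ATP6 (0.38), MT-CO3 (0.47), MT-ND4 (0.58), MT-ND5 (0.64), MT-CYB (0.55) and DMAC2L (0.038). With each cell weighted equally, complex III stood at -0.74, mitochondrial mRNA at -0.31, the members at 5 to 10% at -0.83 and at 10 to 20% at -1.42, and the 10 to 20% over 5 to 10% contrasts at -0.11 (library labelled WT) and -0.73 (library labelled FKO). Cells with a TPH2 UMI gave -0.92 for complex IV, -0.41 for mitochondrial mRNA and a reversed COX8C (-0.074, a gene with 22 and 19 UMIs in all cells used). Cells with 5000 to 15000 UMIs gave -0.84 for complex V, -0.29 for mitochondrial mRNA, -0.047 for the 10 to 20% over 5 to 10% contrast of the library labelled FKO, -0.80 for the members at 10 to 20%, a make-up difference of 7.26 points, and reversed MT-ND1 (0.023) and MT-ND5 (0.016). Thinned to 2000 UMIs per cell, complex V stood at -0.82, mitochondrial mRNA at -0.31 and those contrasts at -0.11 and -0.55. Mitochondrial mRNA was -0.35 with doublets kept, -0.42 at most 20% mitochondrial UMIs, and -0.37 without cells with 3 or more UMIs of other cell types' markers. The genes compared by abundance and length and the cells left out by marker were chosen after seeing the data. For mitochondrial mRNA, scaling to all UMIs is the scale already used and gives no other value. No paired analysis was possible because each condition has 1 library. For the same reason no comparison between libraries remains without the library labelled FKO, in which FOXA2 mRNA was higher.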
